A study of Arabidopsis thaliana with 12 samples.

Results

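A set of 84 Arabidopsis genes was examined whose transcript level was higher with cytokinin, past a set ratio, in root explants labelled CPL4RNAi, and differed little with cytokinin in wild type. The members were chosen from the group values of the study itself. The ratio with over without cytokinin had to be 1.8 or more in the groups labelled CPL4RNAi and between 0.8 and the inverse of 0.8 in wild type. The treated labelled group had to reach 2 FPKM, the untreated one had to be above 0 and untreated wild type had to reach 1 FPKM. FPKM scales a fragment count to transcript length and library size. Of 33557 features in the authors' deposited table, 16751 met the 3 level minimums, 14838 of these had a wild-type ratio inside the window, and 84 also met the ratio in the labelled line. Because these values chose the members, their cytokinin responses are given as a description and support nothing.

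The explants were roots of wild type (Col-0 gl1, ecotype Columbia) or of a Columbia line that the titles call CPL4RNAi and the genotype field calls CPL4 KO, with no promoter or number of lines stated. Shoots were removed from seedlings aged 10 days. Segments of their roots were kept for 5 days under callus-inducing and then for 72 hours under shoot-inducing conditions, with the cytokinin 2iP at 0.05 mg/L or at 0 mg/L. At harvest the age was 18 days. The 4 groups (wild type and CPL4RNAi, each without and with cytokinin) had 3 samples each, of which the deposited table shows only 1 combined value per group, so that the spread between samples cannot be seen and the depth of each library is unknown. CPL4, the targeted gene and a phosphatase of the tail of RNA polymerase II, stood at 14.5 FPKM in untreated and 13.9 in treated wild type, and at 36.3 and 32.2 in the groups labelled CPL4RNAi. The FPKM counted for the CPL4 gene was thus higher, not lower, under that label. Which RNA those reads came from was not tested, and the directions that follow keep the labels as given.

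Plants make most of the defence hormone salicylic acid from chorismate in the plastid. Isochorismate synthase (ICS1) makes isochorismate, the carrier EDS5 exports it, and PBS3 joins it to glutamate in a conjugate that breaks down to salicylic acid. The regulator SARD1 switches on ICS1, EDS1 is a signalling hub that promotes the pathway, and NPR1 with its partners and many WRKY transcription factors act downstream. Cytokinin is best known for inducing shoots from callus, and in leaves it is also known to promote salicylic acid-dependent defence.

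All 3 genes of this route, and the regulators SARD1 and EDS1, were among the 84 members. The 300 bases before the annotated gene start (RefSeq annotation of TAIR10.1) are shown for the 3 route genes and SARD1, because they are the enzymes and carrier of the route and the direct regulator of ICS1. Capitals mark the letters TTGAC or, on the other strand, GTCAA, the core of the W-box that WRKY proteins are known to bind. The windows are chr1:28069995-28070294 (plus strand) for ICS1, chr4:18185137-18185436 (plus strand) for EDS5, chr5:4267156-4267455 (plus strand) for PBS3 and chr1:27749249-27749548 (minus strand) for SARD1.
ICS1: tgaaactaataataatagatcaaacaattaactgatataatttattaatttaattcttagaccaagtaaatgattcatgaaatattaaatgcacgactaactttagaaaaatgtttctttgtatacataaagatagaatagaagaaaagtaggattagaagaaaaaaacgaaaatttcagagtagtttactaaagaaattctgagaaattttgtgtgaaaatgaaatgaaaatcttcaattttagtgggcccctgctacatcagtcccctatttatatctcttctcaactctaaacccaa
EDS5: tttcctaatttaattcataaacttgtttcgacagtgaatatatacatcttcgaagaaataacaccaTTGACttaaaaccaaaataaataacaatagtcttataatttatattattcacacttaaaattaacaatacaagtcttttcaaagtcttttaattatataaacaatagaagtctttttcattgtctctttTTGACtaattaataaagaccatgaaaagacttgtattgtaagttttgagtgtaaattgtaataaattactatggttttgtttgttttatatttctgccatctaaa
PBS3: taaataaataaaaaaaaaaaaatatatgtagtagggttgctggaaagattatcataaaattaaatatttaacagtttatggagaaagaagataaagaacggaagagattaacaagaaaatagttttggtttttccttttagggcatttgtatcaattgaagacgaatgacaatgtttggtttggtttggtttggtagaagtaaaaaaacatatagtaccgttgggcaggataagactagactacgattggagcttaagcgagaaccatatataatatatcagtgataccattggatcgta
SARD1: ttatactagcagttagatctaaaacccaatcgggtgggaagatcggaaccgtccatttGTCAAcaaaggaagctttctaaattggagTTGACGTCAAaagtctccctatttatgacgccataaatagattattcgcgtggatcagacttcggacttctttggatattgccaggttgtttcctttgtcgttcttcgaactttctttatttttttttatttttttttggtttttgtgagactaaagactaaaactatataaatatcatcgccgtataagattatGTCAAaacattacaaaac
The SARD1 window held the core 4 times and the EDS5 window 2 times, while those of ICS1 and PBS3 held 0, so the 4 did not share this motif within this distance.

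ICS1 (AT1G74710; chromosome 1) stood at 56.3 FPKM in untreated and 64.0 in treated wild type, and at 16.0 and 30.8 FPKM in the groups labelled CPL4RNAi without and with cytokinin. EDS5 (AT4G39030) had 64.3 and 79.5 FPKM in wild type and 18.6 and 39.5 in the labelled groups. PBS3 (AT5G13320) had 138.5 and 148.5 FPKM against 27.7 and 52.7. All 3 were lowest in the untreated labelled group, and with cytokinin they were about doubled there but still under both wild-type values. The log2 change with cytokinin in the labelled groups was 0.94 for ICS1 (SE at most 0.23), 1.08 for EDS5 (SE at most 0.27) and 0.93 for PBS3 (SE at most 0.23). SARD1 (AT1G73805) followed the same order, with 60.9 and 67.1 FPKM in wild type and 11.6 and 22.3 in the labelled groups. EDS1 (AT3G48090) came closer to wild type than these 4, with 87.4 and 103.2 FPKM there and 30.5 and 63.5 in the labelled groups. AT3G48080, a neighbouring gene with the same annotation that can share reads with EDS1, went from 3.84 to 6.12 FPKM in the labelled groups.

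The route genes were lower in the labelled groups in both media by the authors' deposited q-value, an adjusted p-value that was called at or under 0.05. Without cytokinin the log2 difference was -1.81 for ICS1 (SE at most 0.45), -1.79 for EDS5 (SE at most 0.44) and -2.32 for PBS3 (SE at most 0.57). With cytokinin it was -1.06 for ICS1 (SE at most 0.26), -1.01 for EDS5 (SE at most 0.25) and -1.50 for PBS3 (SE at most 0.37). Each of these q-values was 2.72e-04, the smallest in the table. The standard errors were derived from the deposited p-values, and a p-value at its floor of 5e-05 gives only an upper limit. RefSeq names ICS1 EDS16, and the deposited table names PBS3 GDG1.

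**Figure D1:**
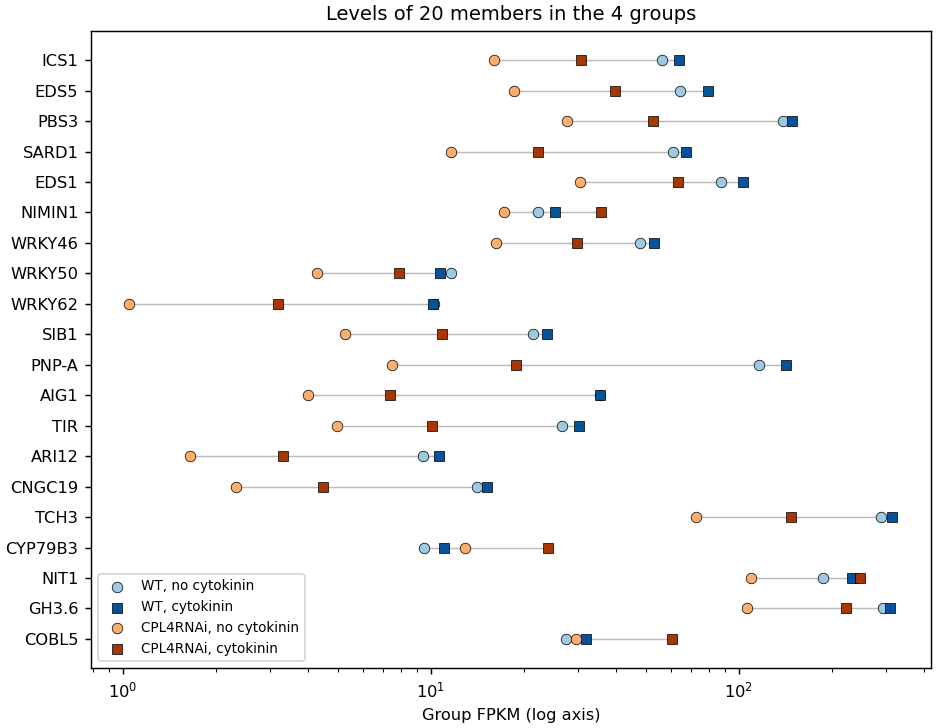
Group FPKM (log axis) of 20 of the 84 members, 1 row per gene. Circles are untreated and squares treated groups, blue is wild type and orange or brown CPL4RNAi, and the grey line spans the 4 values. In ICS1, EDS5, PBS3 and SARD1 both points of CPL4RNAi lie to the left of both blue ones, whereas CYP79B3 and COBL5 have their highest value in the treated labelled group.

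The responses of the members that the rule used were as follows. In the groups labelled CPL4RNAi the ratio with over without cytokinin ran from 1.8 to 3.56 with a median of 2.04, and 75 of 84 members were called higher by the deposited q-value, where 8.42% of all tested genes were, and 0 lower, where 8.88% were. The 9 members without a call were AT1G09665, AT1G51000, AT1G58150, AT1G80800, AT3G09925, ASAT1, AT4G05030, BETA-OHASE 2 and the mitochondrial RRN26. In wild type the ratio ran from 0.824 to 1.24 with a median of 1.11, and it was above 1 in 75 of the 84. Over the 16751 genes with the level minimums the median wild-type ratio was 1.01, and it was above 1 in 9481. Most members thus leaned towards a small rise in wild type too. Called higher in wild type were 7 members, where 6.58% of all tested genes were, and 0 were called lower, where 3.71% were. Of the 84, 8.33% were thus called, near the share of all tested genes, and the count was 1 at a q-value of 0.01 and 1 with adjustment within the comparison. The 7 were EDS5, PNP-A, NIT1, PBP1, AT1G52130, AT2G39210 and AT5G52760. No test of the difference between the 2 responses was made, because the rule fixed it. For 7 of 82 members the upper 95% bound of the wild-type change, as the deposited p-value implies it, reached 1.8-fold.

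At the limit of 1.8 the nearest members inside were AT5G54720, the mitochondrial ORF111D and WRKY46, with ratios of 1.8, 1.82 and 1.83. Just outside were AT5G62420, AT3G60286 and AT5G52750, each with a ratio of 1.79. At the upper wild-type limit TET9, AT2G39210 and NIT1 had ratios of 1.24, and AT5G50140, AT1G35210 and AT1G63480 were just outside at 1.26. At the lower limit AT2G25510, AT1G51035 and AT1G58150 had 0.824, 0.883 and 0.886, and AT5G50120, AT5G57080 and AT1G03660 were outside at 0.765, 0.765 and 0.475.

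Most members began below wild type. In untreated explants 74 of the 84 had a lower FPKM under the CPL4RNAi label than in wild type, and 63 were called lower and 5 higher, where 21.5% and 22.5% of all tested genes were. The median log2 difference was -1.69, beside 0.0030 over all tested genes. In treated explants 48 members were called lower and 16 higher, where 24.7% of all tested genes were called in each direction, and the median was -0.82 beside 0.0081. Both group values of these contrasts also enter the rule, so they describe where the members lay and do not test it. The rule asked 1 FPKM of untreated wild type but only a value above 0 of the untreated labelled group. With untreated wild type too only required to be above 0, the set held 95 genes, and 63 (66.3%) were called lower without cytokinin. Of the 63 members called lower without cytokinin, 48 were called lower with it, 12 were not called and 3 were called higher. Set against untreated wild type, the treated labelled group had 47 members called lower and 20 higher, where 25.2% and 26.4% of all tested genes were.

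For comparison, 116 genes had a ratio of 1.8 or more in both genotypes under the same level minimums. Their median log2 genotype difference was 0.53 without cytokinin and 0.57 with it, with 56 of 115 tested called higher and 16 lower without it, and 65 of 116 higher and 18 lower with it. Over all tested genes 22.5% were called higher and 21.5% lower without cytokinin, and 24.7% in each direction with it. Both sets were chosen on the group values compared here, so no test was made between them. Because the samples are whole explants, fewer cells of a type and less RNA per cell cannot be told apart.

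**Figure D2:**
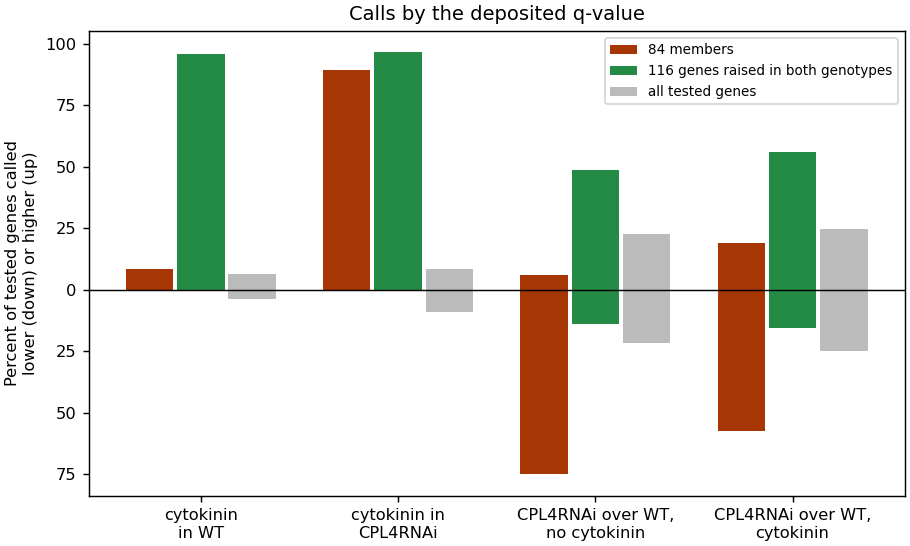
Percent of tested genes called higher (bars upward) and lower (bars downward) at a deposited q-value of 0.05, in 4 comparisons, for the 84 members, the 116 genes raised in both genotypes and all tested genes. In the untreated genotype comparison 75% of the members were called lower and 5.95% higher, while the rule fixed the first 2 comparisons.

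With a limit of 1.5-fold for calling a group under or over wild type, the members fell into 5 patterns. The first held 47 members (56.0%) under wild type in both media, all 47 called lower in each. Another 18 were under wild type without cytokinin and level with it. A further 8 were level without and over wild type with it, 5 were over wild type in both media, and 6 were level in both. Among all 14838 genes inside the wild-type window, 9.02% were under wild type in both media and 1.37% were under it without cytokinin and level with it. The rule requires a larger ratio in the labelled line than in wild type, which by itself shifts members between patterns. These shares are therefore a description. Of the 1338 window genes under wild type in both media, 1311 were called lower without cytokinin and 1312 with it, so such calls mostly follow from the 1.5-fold limit. For the 47, a median of 42.5% of the log2 distance between the untreated labelled group and treated wild type was covered with cytokinin, from 27.4% to 64.7%. The ratio in the rule and the 1.5-fold limit keep this share positive and short of the whole distance, so it is a description. Over the 1338 window genes of the same pattern the median was -10.6%.

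**Figure D3:**
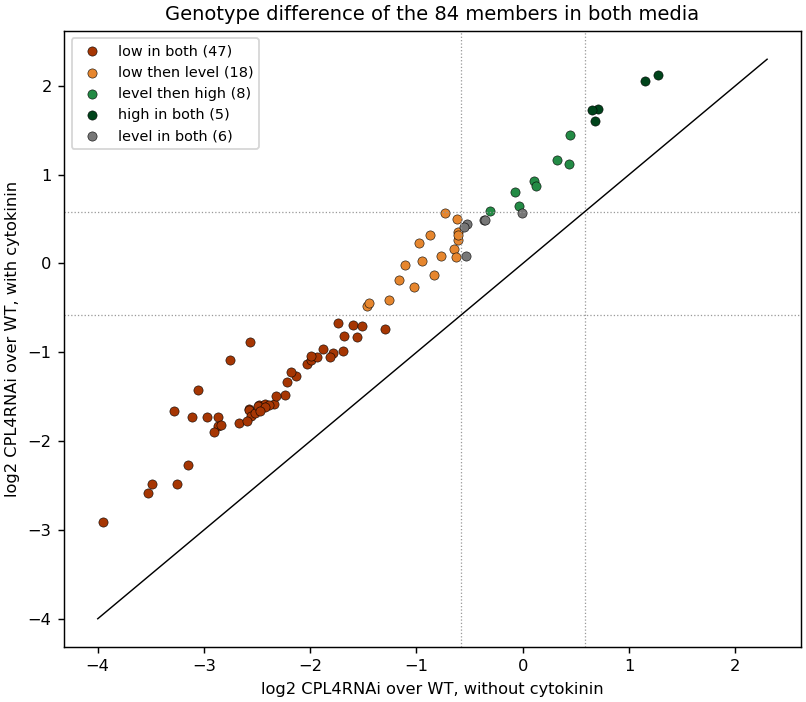
log2 of the FPKM ratio of CPL4RNAi over wild type without cytokinin (horizontal axis) and with it (vertical axis) for the 84 members, coloured by pattern with the number of genes in the key. Dotted lines mark 1.5-fold and the solid line equal differences. The 47 members of the largest pattern lie at the lower left, and all points lie above the solid line because the rule requires it.

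The members furthest under wild type without cytokinin included PNP-A, AT1G21525 and AT5G24200. PNP-A, which encodes a small secreted natriuretic peptide known to respond to pathogens, had 116 and 142.1 FPKM in wild type but 7.49 and 18.8 in the labelled groups. Its untreated difference of -3.95 (SE at most 0.97) was the lowest among the members called lower. AT1G21525 went from 13.9 to 27.7 FPKM with cytokinin, against 159.8 and 166.7 in wild type. AIG1, a GTP-binding protein gene first found through its induction by an avirulent bacterium, went from 4.0 to 7.35 FPKM, against 35.4 and 35.5 in wild type. With cytokinin these 3 genes lay 4.83 to 7.54-fold under treated wild type. The alpha/beta hydrolase genes AT5G24200 and AT5G24210 stood 5.58 and 5.59-fold under it, with untreated differences of -3.49 and -3.25.

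Transcription regulators were represented by 3 WRKY genes, NAC004 and SIB1. WRKY62 had 10.2 and 10.1 FPKM in wild type and rose from 1.05 to 3.19 in the labelled groups, the third largest ratio of the set (3.05). WRKY46, one of the WRKY factors that promote salicylic acid-dependent defence, went from 16.3 to 29.8 FPKM, against 47.9 and 52.9 in wild type. WRKY50, which acts on the defence gene PR1, went from 4.26 to 7.88, against 11.6 and 10.7, and NAC004 from 6.82 to 13.0, against 10.5 and 12.4. WRKY50 and NAC004 thus reached wild type within 1.5-fold, whereas WRKY46 and WRKY62 did not. SIB1, a partner protein of WRKY33, went from 5.25 to 10.9 FPKM, against 21.5 and 23.9 in wild type.

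Several members act in calcium and membrane signalling. CNGC19, a calcium-permeable channel, went from 2.34 to 4.47 FPKM in the labelled groups, against 14.1 and 15.2 in wild type. TCH3, a calmodulin-like protein gene that responds to touch, went from 72.7 to 147.9 FPKM, against 289.9 and 315.0. In all, 5 members are annotated as calcium-binding or calmodulin-binding, SARD1 and TCH3 included, of which 5 were called lower without cytokinin and 4 with it, beside 63 and 48 of all 84 members. AT3G47480 and AT5G39670, both annotated with calcium-binding EF hands, went from 18.8 to 40.6 and from 17.1 to 36.7 FPKM, against 112.5 to 127.5 and 108.6 to 127.4 in wild type. The wall-associated kinase gene AT1G16260 went from 2.01 to 4.03 FPKM, against 11.3 and 12.3. TIR, which encodes a short protein with the domain of immune receptors, went from 4.94 to 10.1 FPKM, against 26.5 and 30.2. The U-box gene PUB54 went from 20.8 to 43.0 FPKM, against 96.7 and 108.7, and ARI12, a RING/U-box gene, from 1.65 to 3.31, against 9.45 and 10.6. All 9 of these genes, SARD1 included, were under wild type in both media.

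By the words of the product annotation 11 members were among 916 features with transport terms. Another 5 were among 134 for calcium-binding or calmodulin-binding proteins and 4 among 48 serine carboxypeptidases. Transcription factors held 4 of 478, P-loop hydrolases 3 of 203 and cytochromes P450 2 of 218. Receptor-like kinases held 1 of 134, and disease resistance and TIR proteins 1 of 161. The members were 84 of all 33557 features, and no set test was made. Of the 11 with transport terms, 11 were called lower without cytokinin and 9 with it, beside 63 and 48 of all 84 members. The words do not show that each is a membrane carrier, and 4 of the 11 lie in the tandem run described further on. Beside EDS5, CNGC19 and the copper transport genes described further on, AT2G39210 of the major facilitator superfamily went from 19.5 to 44.3 FPKM, against 62.9 and 78.2 in wild type. The organic cation transporter gene OCT5 went from 1.73 to 3.33 FPKM, against 2.70 and 2.99, and so ended within 1.5-fold of wild type. The cytochrome P450 gene CYP72A8 went from 4.05 to 7.69 FPKM, against 22.4 and 24.4. BETA-OHASE 2, a carotene hydroxylase of carotenoid synthesis, had 0.985 and 2.44 FPKM, against 7.75 and 8.10, with no call for the cytokinin effect.

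The largest ratio of the set was that of AT3G28600, a P-loop nucleoside triphosphate hydrolase gene, which went from 0.742 to 2.64 FPKM in the labelled groups, against 5.00 and 5.63 in wild type. AT3G28510 of the same annotation had the smaller ratio of 2.13, with 4.67 and 9.95 FPKM, against 27.5 and 32.6. AT1G30190, annotated as a cotton fiber protein, went from 2.79 to 7.36 FPKM, against 24.2 and 24.3, and the lectin gene AT1G52130 from 3.17 to 7.90, against 23.2 and 28.2. AT3G60420, of the phosphoglycerate mutase family, was among the most abundant members, with 28.0 and 62.1 FPKM, against 167.7 and 194.1. In untreated wild type the genes of this paragraph ran from 5.00 to 167.7 FPKM. The rule requires the rise in the labelled groups. All of these genes had treated wild type highest and the untreated labelled group lowest. That order, with untreated wild type over the treated labelled group, held for 47 of the 84. These 47 are not the same genes as the 47 under wild type in both media, since WRKY62 is only among the latter. In 18 members the treated labelled group was highest and the untreated one lowest, with treated over untreated wild type between. In 2 more the wild-type groups between were reversed.

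**Figure D4:**
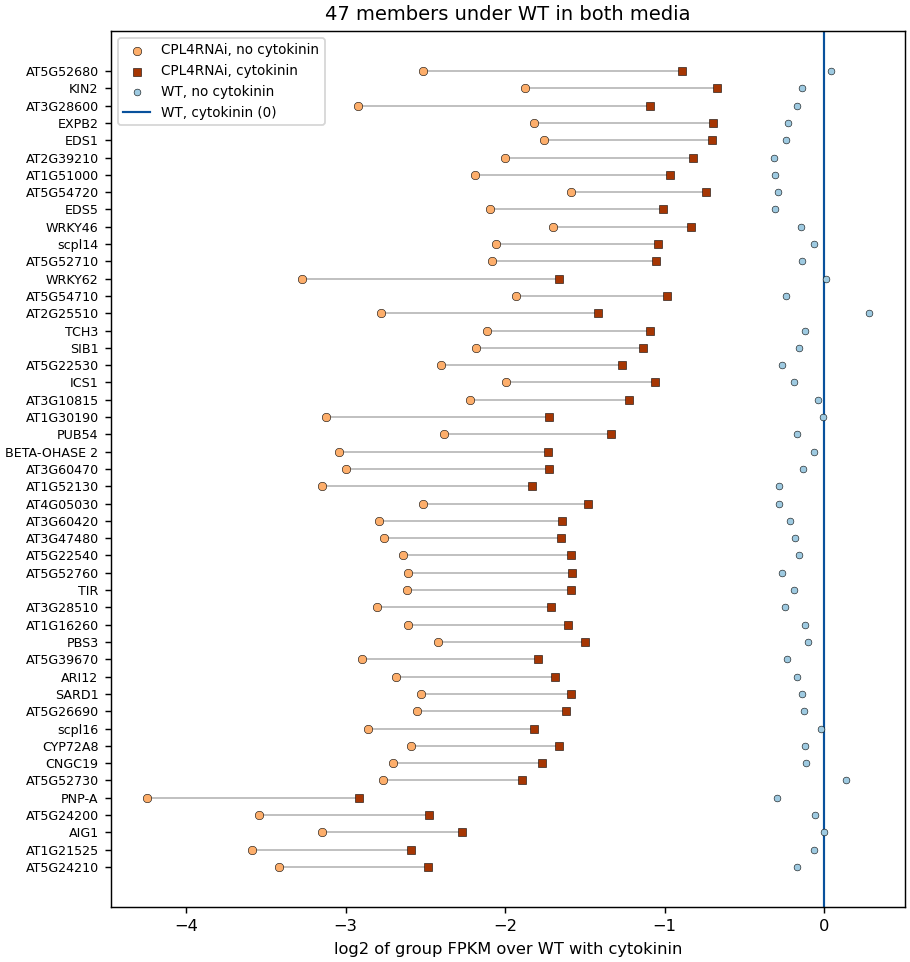
log2 of group FPKM over treated wild type for the 47 members under wild type in both media, 1 row per gene, ordered by the share of the distance that cytokinin covered. Orange circles are the untreated and brown squares the treated labelled group, pale blue circles untreated wild type, and the line at 0 treated wild type. The squares lie between -2.91 (PNP-A) and -0.67 (KIN2).

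A smaller part of the set came within 1.5-fold of wild type or passed it. NIT1, a nitrilase that can form auxin from indole-3-acetonitrile, went from 109.5 to 247.2 FPKM in the labelled groups, against 186.9 and 232.4 in wild type. Of its neighbours in the same family, NIT2 had 140.3 and 133.7 FPKM in the labelled groups, with no call, and NIT3 had 12.9 and 26, with a call. GH3.6, which conjugates auxin to amino acids, went from 106.1 to 222.6 FPKM, against 294.0 and 310.0, and was still called lower than wild type with cytokinin. PBP1, a calcium-binding partner of the kinase PINOID that affects auxin transport, went from 49.4 to 94.5 FPKM, against 71.6 and 88.8. AT5G15950, an S-adenosylmethionine decarboxylase gene of polyamine synthesis, went from 3.08 to 9.19 FPKM, against 5.09 and 6.21, and was called lower than wild type without and higher with cytokinin. So were AIR3, a subtilisin-like protease gene, with 11.4 and 22.6 FPKM against 16.4 and 16.6, and the aspartyl protease gene AT1G62290, with 3.19 and 5.89 against 4.68 and 4.45.

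Other members were over wild type with cytokinin. CYP79B3, which turns tryptophan into indole-3-acetaldoxime, went from 12.9 to 24 FPKM in the labelled groups, against 9.52 and 11.0 in wild type, and was called higher in both media. COBL5, a COBRA-like protein gene, went from 29.5 to 60.8 FPKM, against 27.5 and 31.8, and was called higher with cytokinin alone. The leucine-rich repeat gene AT3G24480 went from 7.54 to 17.8 FPKM, against 5.56 and 6.52. In the 5 members over wild type in both media, the treated differences ran from 1.60 in ASAT1, which was not called, to 2.12 in AT1G35830, a gene for a VQ motif protein. The other 3 were the O-methyltransferase gene AT1G77530 at 2.05, the carboxypeptidase gene scpl28 at 1.74 and AT1G51035 at 1.72. NIMIN1, whose product binds NPR1, differed from the other salicylic acid members, since it went from 17.3 to 35.5 FPKM against 22.3 and 25.3 and was called higher than wild type with cytokinin.

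The wider salicylic acid and immune list holds 23 genes, of which 20 were matched and 6 were members. In the labelled groups 11 of 16 tested list genes were called higher with cytokinin and 0 lower, but the rule chose 6 of the 11. Leaving out the 6 members, 5 of 10 tested were called higher, where 8.42% of all tested genes were, and 0 lower. Their median log2 change was 0.31 beside 0.015 over all tested genes. The 5 were PAD4, NPR3, FMO1, CBP60g and NUDT6. PAD4, the partner of EDS1, went from 19.8 to 28.1 FPKM with 73.8 and 74.0 in wild type. FMO1, which makes the mobile immune signal N-hydroxypipecolic acid, went from 1.69 to 6.03 and rose in wild type too, from 9.62 to 15.5 FPKM. The receptor gene NPR1 had 13.4 and 13.5 FPKM in the labelled groups and 24.1 and 25 in wild type. The target genes PR2 and PR5 were at or under 0.522 FPKM in the labelled groups, against 5.90 to 8.33 in wild type. Between genotypes 17 of 19 list genes were called lower without cytokinin, where 21.5% of all tested genes were, and 0 higher. With it 17 of 18 were called lower, where 24.7% of all tested genes were, and 1 higher (NIMIN1). Leaving out the members, 12 of 13 were called lower without cytokinin and 12 of 12 with it. In wild type 4 of 19 were called higher with cytokinin, where 6.58% of all tested genes were, and 0 lower. A lower level in the labelled groups was not particular to this list. Of the abscisic acid response list 14 of 17 tested were called lower and 1 higher in each medium. The cell cycle list went the other way. Of its 27 tested genes 23 were called higher and 1 lower without cytokinin, and 21 higher and 2 lower with it. Over all tested genes 22.5% were called higher without cytokinin and 24.7% with it.

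Of the 28 WRKY genes in the list used here, which need not be the whole family, 3 were members. Among the others, 6 of 23 tested were called higher and 4 lower with cytokinin in the labelled groups, where 8.42% and 8.88% of all tested genes were, and their median log2 change was 0.04. WRKY70 and WRKY51, outside the set with ratios under 1.8, went from 29.8 to 48.6 and from 20.4 to 34.1 FPKM. Lists of other pathways held few members. The list of camalexin and indole glucosinolate genes, early auxin response genes and expansins each held 1, namely CYP79B3, GH3.6 and EXPB2, an expansin that went from 3.85 to 8.39 FPKM. The remaining 13 of the 18 pathway lists held 0 members, among them pattern recognition, jasmonate, ethylene, abscisic acid, glutathione S-transferase, cell cycle, shoot regeneration and type-A response regulator genes. Of the type-A response regulators, the direct cytokinin targets, 8 of 9 tested were called higher in wild type and 7 of 8 in the labelled groups. Over all tested genes the shares were 6.58% and 8.42%.

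Cell type markers were set beside these values. The 6 phloem markers summed to 79.7 FPKM in untreated and 100.8 in treated wild type, and to 37.8 and 60.9 in the labelled groups, the same order of groups as in most members. All 6 were called lower in the labelled groups in both media, where 21.5% and 24.7% of all tested genes were. With cytokinin 3 of the 6 (SUC2, SEOR1 and SMXL5) were called higher there, where 8.42% of all tested genes were. SUC2 went from 8.52 to 26.7 FPKM. In wild type 2 of the 6 were called higher with cytokinin too, where 6.58% of all tested genes were. Their median log2 change was 0.30 in wild type, beside 0.40 in the labelled groups. The part of these markers in the members' values was not tested. No member was in a marker list. Xylem markers had another order, summing to 7.33 and 41.0 FPKM in wild type and to 81.4 and 52.1 in the labelled groups. The 13 photosynthesis markers summed to between 16.5 and 30.9 FPKM, and 10 of the 13 were under 1 FPKM in each group. The 8 endodermis markers of the labelled root tissue summed to 50.9 and 31.1 FPKM in wild type and to 178.0 and 100.9 in the labelled groups. The 11 markers of root stem cell niche and callus summed to 703.4 and 642.2 FPKM in wild type and to 457.1 and 396.8 in the labelled groups, with 8 of 11 called lower there in each medium. Those of shoot epidermis and stomata summed to 64.3 and 54.6 FPKM in wild type and to 22.6 and 18.1 in the labelled groups. Of these 8 markers, 5 were under 1 FPKM in each group and only 3 were tested. Both sums were thus lower in the labelled groups, like most members, and lower with cytokinin in each genotype, and their part in the members' values was not tested. The 5 cambium markers summed to 184.9 and 249.8 FPKM in wild type and to 188.9 and 203.7 in the labelled groups. The lists of root cap and of root epidermis and hairs each summed to at most 28.7 FPKM in any group.

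By position, 20 members lay within 10000 bases of another member, in 9 groups. The largest was a run of 4 genes annotated as copper transport proteins on chromosome 5 between 21365651 and 21387714 (RefSeq annotation of TAIR10.1), all on 1 strand. AT5G52760 went from 16.8 to 34.2 FPKM in the labelled groups, against 85.3 and 102.3 in wild type, and AT5G52680, AT5G52710 and AT5G52730 from 0.807 to 2.5, from 4.55 to 9.25 and from 4.28 to 7.84. Of 5 other protein-coding genes between them, AT5G52700, AT5G52720 and AT5G52750 were also called higher with cytokinin in the labelled groups, with ratios of 1.75, 1.73 and 1.79. The remaining 2, AT5G52690 and AT5G52740, were not tested there. Further pairs were the carboxypeptidase genes scpl16 and scpl14, the ankyrin repeat genes AT5G54710 and AT5G54720, and TCH3 with AT2G41090. Tandem copies like these can share reads, so their separate levels are uncertain. The cold-responsive gene KIN2 went from 32.7 to 75.5 FPKM, against 108.9 and 120.0, while its tandem copy KIN1 had 0.934 and 1.26. In 10 members, EDS5 among them, the authors' locus was merged with that of an overlapping gene.

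In the 300 bases before the start, TTGAC on either strand was found in 45 of 79 protein-coding members (57.0%) and in 50.4% of 26674 protein-coding genes. TTGAC occurred at least 2 times in 22.8% of members and in 17.9% of all genes. The motif AGATT, which type-B cytokinin response regulators bind, was found on either strand in 58.2% of members and in 70.6% of all genes. For TGACG, bound by TGA factors that partner NPR1, the shares were 17.7% and 21.3%, and matches of it can overlap those of the W-box core. The longer W-box, TTGACC or TTGACT, was found in 34.2% and 32.3%, CACGTG in 11.4% and 7.18%, GCCGCC in 1.27% and 2.24%, and TGTCTC in 11.4% and 12.9%.

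The 3 mitochondrial members were 2 ribosomal RNA genes and an open reading frame. RRN26 had 548.1 and 1259 FPKM in the labelled groups, against 838.5 and 987.3 in wild type, and was not called for the cytokinin effect. RRN18 went from 190.4 to 463.2 FPKM, against 347.6 and 369.7, and ORF111D from 19.4 to 35.2, against 19.5 and 23.7. Of 53 mitochondrial features tested in the labelled groups, 10 were called higher with cytokinin and 0 lower, RRN18 and ORF111D among the 10. Leaving out the members, 8 of 50 were called higher, where 8.42% of all tested genes were, with a median log2 change of 0.17. The libraries were depleted of ribosomal RNA, whose part in these values was not tested.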

How the data were processed

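Total RNA of 12 samples was sequenced after ribosomal RNA depletion, strand-specifically and in read pairs of 125 nt, per the labels' protocols. Per the submitters' processing notes, the tools were bcl2fastq 2.17.1.14, TopHat2 2.0.14 and Cuffdiff 2.2.1.3, and the build was TAIR10. Their options are not given in the sources used here. The authors' deposited table gives 1 FPKM per group and a p-value and q-value per pair of groups, per the file headers. Values per sample were not used here, so no paired fit or omission of a sample was made, and 95% bounds rest on implied standard errors alone. Whether the 3 samples of a group were separate cultures is not stated.

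Log2 differences were computed from group FPKM without a pseudocount. Calls were made where the deposited q-value did not exceed 0.05. An implied standard error is the size of a log2 difference over the normal quantile of its deposited p-value, and reflects Cuffdiff's model. Members and lists were chosen with earlier results of these data known. Named were the 10 largest ratios in the labelled line with 5 FPKM or more, the 10 highest treated levels, members of the lists, the 5 lowest untreated and 5 highest treated genotype differences that were called, members with neighbours, and genes at the rule's limits; some were left out for length, and others outside this rule were named after their values were seen. An annotation record was found by identifier for 32797 of 33557 features (97.7%) and for 81 of the 84 members, 79 of them protein-coding and 2 transcribed pseudogenes. Symbols, strands and promoters come from the RefSeq annotation of TAIR10.1. Scripts were tested on simulated data. The work used matplotlib 3.10.9, SciPy 1.17.1, pandas 2.3.3 and numpy 2.4.6 under Python 3.11.15.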

Additional observations from a re-analysis of the deposited data

How the results depend on the processing

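Of 204 recomputed counts, 164 stayed within 1.5 times the value reported, and 23 of the 40 others were counts of single gene lists at a q-value of 0.01. The size of the set followed its limits, with 201 genes at a ratio of 1.5, 48 at a ratio of 2, 33 with a wild-type window of 0.9 to 1.1 and 129 with one of 0.67 to 1.5. Under these 4 memberships between 62.7% and 83.3% of the genes were called lower than wild type without cytokinin. The median log2 genotype difference with cytokinin, -0.82 as reported, was -0.30 at the ratio of 1.5, -0.33 with the wider window and -0.48 with untreated wild type only required to be above 0. With at least a 2-fold change required, 42 members were called higher with cytokinin in the labelled groups, 0 in wild type, 2 were called higher than wild type without cytokinin and 7 with it. At a q-value of 0.01, or with adjustment within the comparison, 1 member was called in wild type, and at 0.01 1 gene of the salicylic acid list was. The pattern level in both media held 0 members at a tighter limit (the inverse of 0.8), 23 at 2-fold and 15 with a pseudocount of 1, and the pattern over wild type in both held 2 at 2-fold and 3 with the pseudocount. Within 5000 bases of another member lay 12. Chosen after seeing the data, leaving out the mitochondrial genes gave 73 members called higher with cytokinin in the labelled groups. Leaving out merged loci gave 58 called lower and 4 higher than wild type without cytokinin, and 45 and 12 with it. These omissions were run for no other count. No paired analysis was possible because the deposited table combines the replicates of a group, and no replicate could be left out. Depth was unknown and limits low genes most.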
